A study of Mus musculus with 7 samples.

Results

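Serpins are protease inhibitors that act once. A protease cuts an exposed loop of the inhibitor, the serpin folds around it, and the pair stays locked together. Clade B serpins such as Serpinb2 and Serpinb9 lack a classical signal peptide and work mostly inside the cell, where they guard it against its own granule and lysosomal proteases or against those of neighbours. Clade A serpins and the C1 inhibitor Serping1 are mostly secreted, although mouse Serpina3g acts in the cytosol. In myeloid cells this family stands opposite the granule serine proteases, the cathepsins, the plasminogen activators and the first proteases of complement.

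The data describe 8 serpin genes, Serpinb10, Serpinb2, Serpinb1a, Serpinb6a, Serpinb8, Serpinb9, Serpina3g and Serping1, found by symbol among the 65 serpin genes of a count table of 26130 genes. They were chosen by family membership and with their counts in all 3 groups already known. Their differences are therefore given as descriptions, and their counts of calls support nothing. All 8 passed the filter on low counts. Of the other 57 serpins, 14 passed it, 43 did not, and 28 of those had no count in any library.

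Polyadenylated RNA came from lung cells of Fth1-mScarlet x Lyz2GFP mice, in which a red reporter reads out ferritin heavy chain (Fth1) and GFP marks cells that use the lysozyme gene Lyz2, which monocytes, macrophages and neutrophils do. Cells positive for GFP, CD11b and Ly6C and negative for the neutrophil antigen Ly6G were sorted by reporter level. The 3 groups were Fth1-low cells of untreated mice (n = 2 libraries), Fth1-low cells taken 3 days after 20 µg of E. coli lipopolysaccharide (LPS) in 50 µl was put into the trachea (n = 2), and Fth1-high cells of LPS-treated mice (n = 3). All mice carried both reporters. The labels give neither age nor sex, nor whether a library was 1 mouse or a pool. Fth1-high cells of untreated mice were not analysed here, so comparing LPS Fth1-high cells with the untreated group changes treatment and gate together.

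Library totals ran from 10459703 to 27997007 counts, except for LPS Fth1-low replicate 1 with 637787. Levels are given as CPM, counts scaled to a library of 1000000 after adjustment by the trimmed mean of M values. In the shallow library 1 count is worth 1.67 CPM and 3 counts are worth 5.02 CPM, against at most 0.280 CPM for 3 counts elsewhere. The 10 markers of the sorted cells summed to between 14870 and 21387 CPM in every library, and Ly6g had at most 2 counts. Lyz2 alone gave 6140 to 12500 CPM of that sum, and single markers differed between groups. Mean levels in LPS Fth1-high against LPS Fth1-low cells were 226 against 1219 CPM for Ccr2 and 954 against 2027 CPM for Ptprc. Adgre1 went the other way, at 1096 against 426 CPM. By the rule for calls given below, 1 of the 10 was higher there and 2 were lower. Epithelial markers summed to 831 CPM in untreated replicate 1 and to 5.97 CPM in untreated replicate 2. Fibroblast markers summed to 130.6 CPM in LPS Fth1-low replicate 1 and to 22.4 CPM in replicate 2. Intervals and floors from counts cover counting error only.

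Differences are log2 ratios from edgeR's quasi-likelihood fit, each with its standard error (SE), and a gene is called where the Benjamini-Hochberg adjusted p over 13665 genes is below 0.05. Between LPS Fth1-high and LPS Fth1-low cells 8.25% of all genes were called, 3.68% higher and 4.57% lower, and of the 8 serpins 0 were higher and 2 lower. Between LPS Fth1-low and untreated cells 3.62% of all genes were called, 2.99% higher and 0.629% lower, and of the serpins 3 were higher and 0 lower. Between LPS Fth1-high and untreated cells 24.3% of all genes were called, 12.4% higher and 11.9% lower, and of the serpins 2 were higher and 2 lower. Without LPS Fth1-low replicate 2 the calls over all genes were 682 higher and 379 lower between the LPS groups, against 503 and 625, and 249 instead of 86 genes were lower in LPS Fth1-low than in untreated cells. Median log2 differences of the 8 serpins were -0.52, 0.29 and -0.36 in that order, beside 0.04, -0.05 and 0.03 over all genes tested. The genes chosen fix these shares, and nothing is read from them.

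**Figure D1:**
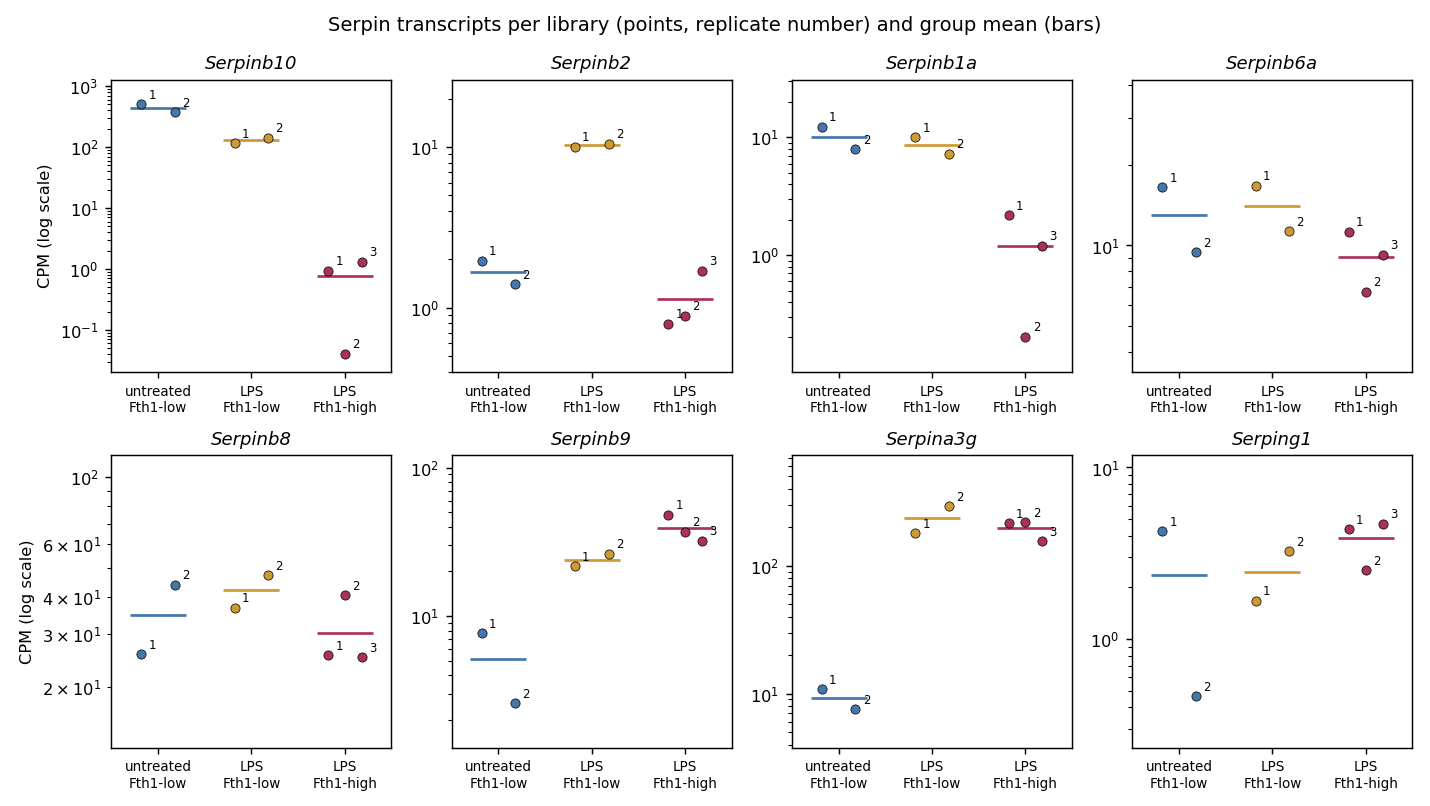
Level of each of the 8 serpins in each of the 7 libraries, in CPM on a log axis, by group. Serpinb10 runs from 510 CPM in an untreated library down to 0.0406 CPM in an LPS Fth1-high library, while Serpina3g lies at 7.55 and 10.9 CPM in untreated cells and between 156 and 292 CPM in all 5 libraries from LPS-treated mice.

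Serpinb10, also called bomapin, is a clade B serpin of blood and bone marrow cells of the myeloid lineage whose target protease is not settled. Serpinb2, or plasminogen activator inhibitor 2, inhibits the urokinase and tissue-type plasminogen activators and is a classical product of activated monocytes. The genes are neighbours on mouse chromosome 1 (GRCm38), both on the plus strand, Serpinb2 at chr1:107511423-107535478 and Serpinb10 at chr1:107529003-107549271. The GENCODE vM21 annotation classes Serpinb10 as a polymorphic pseudogene, and RefSeq classes it as protein coding. Their bodies overlap by 6476 bp and their exons by 291 bp, which is 8.34% of the exon length of Serpinb10 and 12.4% of that of Serpinb2. The start of Serpinb10 therefore lies inside the body of Serpinb2, and reads from the shared exon stretch cannot be assigned to one of them. The 250 bases before each start, from RefSeq on GRCm38.p6, are shown because the genes differ in pattern although they lie side by side; capitals mark matches to the motifs searched.
Serpinb10, chr1:107528753-107529002, plus strand: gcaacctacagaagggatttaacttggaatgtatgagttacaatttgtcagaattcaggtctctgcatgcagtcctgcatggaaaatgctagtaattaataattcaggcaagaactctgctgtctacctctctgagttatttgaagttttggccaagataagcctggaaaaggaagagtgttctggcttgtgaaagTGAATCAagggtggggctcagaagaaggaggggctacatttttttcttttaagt
Serpinb2, chr1:107511173-107511422, plus strand: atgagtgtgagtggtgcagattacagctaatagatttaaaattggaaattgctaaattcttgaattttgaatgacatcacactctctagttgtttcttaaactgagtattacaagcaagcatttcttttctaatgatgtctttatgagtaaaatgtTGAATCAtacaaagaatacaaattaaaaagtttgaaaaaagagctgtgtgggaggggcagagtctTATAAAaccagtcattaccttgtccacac
The 6 motifs below were searched on both strands. They were the AP-1 motif TGANTCA, found in 6.75% of 32851 such windows over all genes, TATAAA in 12.4%, the GAS motif TTCNNNGAA in 7.02%, an NF-kB motif (GGG, any 2 bases, TTTCC) in 1.41%, the repeat of interferon response elements (GAAA, any 2 bases, GAAA) in 2.98% and the PU.1 motif GAGGAAGT in 2.44%. Both windows hold an AP-1 match, from base 54 to base 48 before the start in Serpinb10 and from base 94 to base 88 in Serpinb2. The Serpinb2 window also holds TATAAA from base 29 to base 24. RefSeq lists 2 starts for Serpinb2, and its window lies before the most upstream one. The motifs and windows were chosen after the values had been seen, and a match is a description of letters, not a bound site.

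Serpinb10 was the member with the widest range. It stood at 510 and 376.9 CPM in untreated cells, at 116 and 143 CPM in LPS Fth1-low cells and at 0.929, 0.0406 and 1.31 CPM in LPS Fth1-high cells. No 2 groups overlapped, and every Fth1-high library held few reads, 14, 1 and 37 counts in libraries of 15285553, 25270965 and 27997007. The log2 difference of LPS Fth1-high from LPS Fth1-low cells was -7.42 ± 0.69 (SE), and from untreated cells -9.18 ± 0.72, both called. Without LPS Fth1-high replicate 3 these became -8.30 and -10.06, and without replicate 2 the difference from untreated cells was -8.58. LPS Fth1-low cells lay -1.76 ± 0.61 from untreated cells, which was not called in the fit of all 3 groups. It was called in the fit of those groups alone, with libraries thinned to equal depth, and without LPS Fth1-high replicate 2. In bulk libraries, fewer cells that make a transcript and less transcript per cell cannot be told apart, here and in every result that follows.

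Serpinb2 had another order. Its levels were 1.96 and 1.40 CPM in untreated cells, 10.0 and 10.5 CPM in LPS Fth1-low cells and 0.796, 0.894 and 1.70 CPM in LPS Fth1-high cells. LPS Fth1-low libraries were the high ones, and the other groups overlapped each other. LPS Fth1-low cells were 2.60 ± 0.57 (SE) above untreated cells and LPS Fth1-high cells -3.17 ± 0.51 from LPS Fth1-low cells on the log2 scale, both called, and LPS Fth1-high cells were -0.57 ± 0.49 from untreated cells, not called. The shallow replicate gave 6 of the Serpinb2 counts in LPS Fth1-low cells and the other replicate 204. The difference from untreated cells was no longer called without either untreated library, without either LPS Fth1-low library or without LPS Fth1-high replicate 3, at values of 2.42 to 2.87, and that between the LPS groups was no longer called without LPS Fth1-low replicate 2.

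The counts of Serpinb10 per count of Serpinb2 were 260 and 269.5 in untreated cells, 11.5 and 13.6 in LPS Fth1-low cells and 1.17, 0.0455 and 0.771 in LPS Fth1-high cells. Replicates within the Fth1-low groups lay close together, and no groups overlapped. Serpinb2 was thus highest where Serpinb10 was intermediate, and both were low in Fth1-high cells. Of the distinct 58-base stretches of their transcripts, the length of 1 read, 6.74% of those of Serpinb10 and 10.0% of those of Serpinb2 occurred in the other gene. The part of such shared reads in the Serpinb2 counts was not tested.

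Sums of marker lists of other cells are given beside these genes. The 12 neutrophil markers summed to 91.5 and 83.3 CPM in untreated cells, 122 and 218 CPM in LPS Fth1-low cells and 18.9 to 41.6 CPM in LPS Fth1-high cells, and 2 of their 9 tested members, Mmp8 and Prtn3, were lower in LPS Fth1-high than in LPS Fth1-low cells. Mmp8 alone made most of each sum, at 78.2 and 71.2, then 68.6 and 187, then 19.6, 36.6 and 13.9 CPM, and Camp was lowest in LPS Fth1-low cells, at 0 and 0.360 CPM against 0.839 to 1.25 CPM elsewhere. The 0 for Camp lies in the shallow library, where 1 count is worth 1.67 CPM, and its 0.360 CPM rests on 7 counts. The defining marker Ly6g was at or near 0 throughout. The 8 dendritic cell markers summed to 142 CPM in both untreated libraries, to 92.1 and 93.3 CPM in LPS Fth1-low cells and to 16.6 to 22.8 CPM in LPS Fth1-high cells, with 3 of 8 lower between the LPS groups. These markers did not move alike from untreated to LPS Fth1-low cells, where their median log2 difference was 0.36. Cd209a fell from 49.5 and 57.4 to 3.35 and 4.32 CPM, and Ccr7 rose from 11.9 and 2.80 to 33.5 and 20.2 CPM. Means of Clec9a, Xcr1 and Siglech were also higher there, and those of Flt3, Zbtb46 and Clec10a lower. Some of these means lie near the floor, and Xcr1 and Siglech held 5 and 1 counts in the shallow library. In LPS Fth1-low replicate 2 Siglech was at 0.154 CPM, between its untreated values of 0.250 and 0 CPM. None of the 8 was at 0 in every library, though Zbtb46 had 0 counts in LPS Fth1-low replicate 1 and Siglech in untreated replicate 2. Their part in the Serpinb10 and Serpinb2 levels was not tested.

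**Figure D2:**
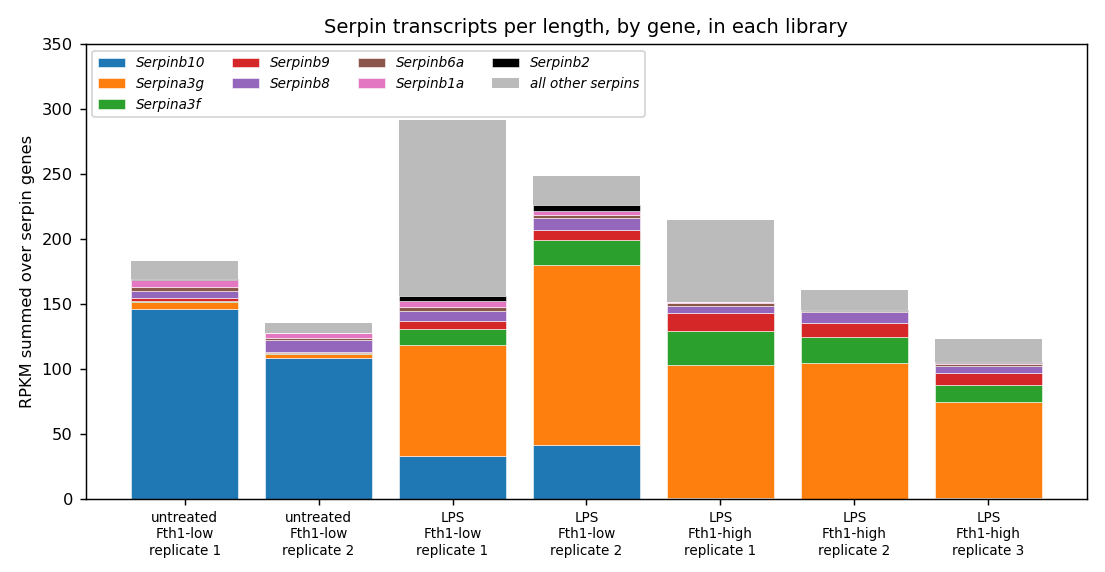
Serpin transcript level per library in RPKM, stacked by gene over the 64 serpins with an exon length. Serpinb10 fills 79.6% and 79.7% of the bar in untreated cells and at most 0.305% in LPS Fth1-high cells, where Serpina3g fills 47.9% to 65.1%.

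Levels of different genes are compared as RPKM, CPM divided by exon length in kilobases. In untreated cells Serpinb10, at 146 and 108 RPKM, held 79.6% and 79.7% of the summed serpin RPKM, and Serpina3g, at 5.16 and 3.59 RPKM, held 2.82% and 2.65%. LPS Fth1-low cells had 33.1 and 41.0 RPKM of Serpinb10 against 85.1 and 138.6 RPKM of Serpina3g. In LPS Fth1-high cells Serpina3g stood at 73.9 to 104 RPKM and Serpinb10 at 0.0116 to 0.375 RPKM. The summed serpin level itself ranged from 123 to 292 RPKM over the 7 libraries, highest in the LPS Fth1-low pair. Among the remaining members Serpinb8 was the highest in all 4 Fth1-low libraries, at 5.38 to 9.86 RPKM, and Serpinb9 in the 3 LPS Fth1-high libraries, at 9.19 to 13.8 RPKM. Serpinb2, Serpinb1a, Serpinb6a and Serping1 stayed at or below 5.37 RPKM in every library.

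Serpinb1a, Serpinb6a and Serpinb9 guard cells against serine proteases of cytotoxic and neutrophil granules. Serpinb1a, one of the mouse counterparts of leukocyte elastase inhibitor, acts on neutrophil elastase, cathepsin G and proteinase 3, Serpinb6a on cathepsin G, and Serpinb9 on granzyme B. All lie on mouse chromosome 13 (GRCm38), Serpinb1a at chr13:32842092-32851185 on the minus strand, Serpinb9 at chr13:33003250-33017957 on the plus strand and Serpinb6a at chr13:33917918-34002794 on the minus strand. Over the groups, Serpinb1a was lowest and Serpinb9 highest in LPS Fth1-high cells, and no difference of Serpinb6a was called.

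Serpinb1a stood at 12.4 and 7.92 CPM in untreated cells, 10.0 and 7.25 CPM in LPS Fth1-low cells and 2.19, 0.203 and 1.20 CPM in LPS Fth1-high cells. The 3 Fth1-high libraries were below all 4 Fth1-low libraries, whose groups overlapped each other. LPS Fth1-high cells were -3.12 ± 0.70 (SE) from untreated cells on the log2 scale, a called difference that lost its call without untreated replicate 1 and was -3.82 without LPS Fth1-high replicate 1. Their difference from LPS Fth1-low cells, -2.80 ± 0.76, was not called. It was called with no filter, by DESeq2, by limma-voom, and when LPS Fth1-high replicate 1 or 2 was left out, at -3.50 and -2.30. LPS Fth1-low and untreated cells differed by -0.32 ± 0.81, not called. The shallow library held 6 counts of the gene. The 6 B cell markers summed to 14.7 to 87.1 CPM in Fth1-low and 6.42 to 33.8 CPM in LPS Fth1-high libraries, with 0 of 6 called between the LPS groups. Of these markers Ebf1 had 0 counts in LPS Fth1-low replicate 1, and their part in Serpinb1a was not tested.

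Serpinb6a was similar in all libraries, at 16.6 and 9.42 CPM in untreated, 16.7 and 11.3 CPM in LPS Fth1-low and 11.3, 6.71 and 9.23 CPM in LPS Fth1-high cells. Every pair of groups either overlapped or nearly touched, and the log2 differences of -0.51 ± 0.37, -0.02 ± 0.40 and -0.53 ± 0.33 (SE) were not called. Its exons are overlapped on the other strand by Nqo2 over 762 bp, 14.1% of its exon length, by the antisense gene 1110046J04Rik over 584 bp (10.8%) and by Ripk1 over 241 bp. The kit keeps strand, but the strand setting of the counting is not given in the sources used here, so reads of these partners cannot be told apart from its own.

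Serpinb9 was ordered by group. Its levels were 7.70 and 2.61 CPM in untreated cells, 21.8 and 26.3 CPM in LPS Fth1-low cells and 48.2, 37.0 and 32.1 CPM in LPS Fth1-high cells. The groups did not overlap. LPS Fth1-low cells were 2.21 ± 0.44 (SE) and LPS Fth1-high cells 2.86 ± 0.41 above untreated cells on the log2 scale, both called. The difference of 0.65 ± 0.40 between the LPS groups was not called. Without untreated replicate 1 the differences from untreated cells were 3.25 and 3.90, and the call for LPS Fth1-low cells was lost without untreated replicate 2 or either LPS Fth1-low library. The 12 T and NK cell markers, whose cells also use Serpinb9, summed to 57.3 and 28.2 CPM in untreated, 60.3 and 29.8 CPM in LPS Fth1-low and 6.26 to 18.2 CPM in LPS Fth1-high libraries. Their part in Serpinb9 was not tested.

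**Figure D3:**
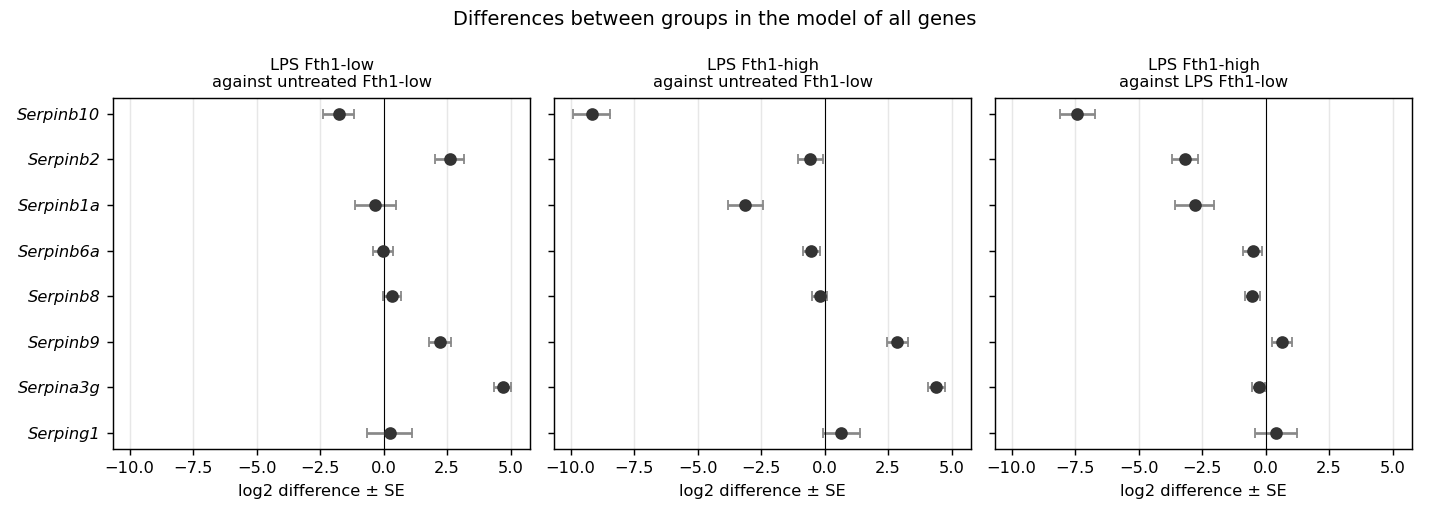
Log2 differences of the 8 serpins in the 3 comparisons, with bars of 1 SE. Serpinb10 lies at -7.42 and -9.18 in the comparisons of LPS Fth1-high cells, and Serpina3g at 4.69 and 4.41 against untreated cells with -0.28 between the LPS groups.

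Serpinb8, an inhibitor of the proprotein convertase furin, lies beside Serpinb10 at chr1:107590006-107610484 on the plus strand. Its levels were 25.8 and 43.8 CPM in untreated, 36.8 and 47.3 CPM in LPS Fth1-low and 25.6, 40.5 and 25.2 CPM in LPS Fth1-high cells. All 3 groups overlapped, and differences of -0.52 ± 0.31 between the LPS groups, 0.33 ± 0.34 for LPS Fth1-low against untreated and -0.19 ± 0.29 (SE) for LPS Fth1-high against untreated cells were not called. Furin itself was higher in LPS Fth1-high than in untreated cells, by 0.79 ± 0.19 on the log2 scale (adjusted p = 0.016), from 249 and 274 CPM to 401 to 483 CPM; the call was lost without either untreated library and without LPS Fth1-high replicate 2 or 3. Serpinb8 spanned 25.2 to 47.3 CPM over the 7 libraries, where its neighbour Serpinb10 spanned 0.0406 to 510 CPM.

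Serpina3g, known as Spi2A, is a mouse clade A serpin that inhibits cysteine cathepsins such as cathepsin B in the cytosol and is induced by interferon gamma and NF-kB signalling. It lies at chr12:104236245-104241939 (GRCm38, plus strand) in a cluster of near copies. Among its distinct 58-base stretches 12.3% occur in another gene, most of them in Serpina3h (7.24%), so its counts are uncertain to that extent. Its upstream window is shown with that of Serpina3f, the gene whose pattern over the 7 libraries was most like it.
Serpina3g, chr12:104235897-104236146, plus strand: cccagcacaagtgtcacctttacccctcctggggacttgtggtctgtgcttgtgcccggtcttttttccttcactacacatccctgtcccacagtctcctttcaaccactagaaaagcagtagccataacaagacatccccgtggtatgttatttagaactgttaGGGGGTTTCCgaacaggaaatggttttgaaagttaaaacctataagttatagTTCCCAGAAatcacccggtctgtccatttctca
Serpina3f, chr12:104214294-104214543, plus strand: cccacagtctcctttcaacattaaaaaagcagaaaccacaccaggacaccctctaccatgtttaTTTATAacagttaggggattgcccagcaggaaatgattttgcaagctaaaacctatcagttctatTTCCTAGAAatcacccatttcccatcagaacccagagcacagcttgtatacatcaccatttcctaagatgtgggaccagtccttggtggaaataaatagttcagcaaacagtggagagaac
The windows matched at 133 of 161 aligned bases (82.6%). Both hold the GAS motif from base 33 to base 25 before the Serpina3g start and from base 121 to base 113 before the Serpina3f start. The Serpina3g window also holds the NF-kB motif from base 85 to base 76. The Serpina3f window holds TATAAA on the minus strand from base 186 to base 181. RefSeq lists 2 starts for Serpina3f, and its window lies before the most upstream one.

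Serpina3g stood at 10.9 and 7.55 CPM in untreated cells, 179 and 292 CPM in LPS Fth1-low cells and 216, 220 and 156 CPM in LPS Fth1-high cells. All 5 libraries from LPS-treated mice lay far above the untreated pair, and the LPS groups overlapped. LPS Fth1-low cells were 4.69 ± 0.35 (SE) and LPS Fth1-high cells 4.41 ± 0.34 above untreated cells on the log2 scale, and both were called whichever library was left out. Between the LPS groups the difference was -0.28 ± 0.27, not called. The shallow library held 107 counts of the gene.

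Serping1, the C1 inhibitor, blocks C1r and C1s of the complement C1 complex as well as plasma kallikrein and factor XIIa, and lies at chr2:84765387-84775444 on the minus strand (GRCm38). It was sparse, at 4.25 and 0.466 CPM in untreated, 1.67 and 3.24 CPM in LPS Fth1-low and 4.38, 2.52 and 4.70 CPM in LPS Fth1-high cells. The counts were 102 and 5, then 1 and 63, then 66, 62 and 133, and the groups overlapped. Log2 differences of 0.42 ± 0.83, 0.24 ± 0.88 and 0.66 ± 0.74 (SE), for the comparisons in the order used above, were not called. The untreated libraries set the last of them. Without replicate 1 it was 3.03 and called, and without replicate 2 it was -0.13. Without LPS Fth1-low replicate 2 the difference between the LPS groups was 1.21, and the difference of LPS Fth1-low from untreated cells ranged from -0.56 to 2.60 over the libraries left out. Untreated replicate 1 also had the higher sums of epithelial (831 against 5.97 CPM), endothelial (400.2 against 149 CPM) and fibroblast markers (32.4 against 6.06 CPM), and their part in Serping1 was not tested.

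The other serpins of the table give the setting. Of the 14 tested, 0 were called between the LPS groups (1 at an unadjusted p below 0.05, and 0 by DESeq2 or limma-voom), with a median log2 difference of -0.64. Serpina3f alone was called in LPS Fth1-low against untreated cells (median 1.07), and LPS Fth1-high cells had 3 higher and 1 lower than untreated cells (median 0.69). Of all genes, 8.25%, 3.62% and 24.3% were called in these comparisons. Serpina3f, a close relative of Serpina3g, stood at 2.33 and 1.49 CPM in untreated, 28.5 and 44.3 CPM in LPS Fth1-low and 60.0, 45.7 and 30.4 CPM in LPS Fth1-high cells. It rose by 4.29 ± 0.41 and 4.51 ± 0.39 (SE) on the log2 scale against untreated cells (edgeR adjusted p = 4.6e-04 and 4.5e-05). Serpina3g counts per Serpina3f count were 4.66 and 5.06, then 6.29 and 6.58, then 3.61, 4.81 and 5.11, highest in the LPS Fth1-low pair. Of the distinct 58-base stretches of Serpina3f, 7.21% occur in another gene, most of them in Serpina3g (3.93%). The part of such shared reads in these values and in the likeness to Serpina3g was not tested.

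Serpina3h, at 2 and 4 counts in untreated and 28 to 70 counts in LPS Fth1-high libraries, rose by 3.34 ± 0.91 (adjusted p = 0.025), a call lost without untreated replicate 1 (at 2.47) or LPS Fth1-high replicate 2 or 3, and the value was 4.56 without untreated replicate 2. Serpina3i had 2 counts in all untreated and 76 in all LPS Fth1-high libraries, a ratio of 19.4 with a 95% counting interval of 5.20 to 163 (adjusted p = 0.029), lost without either untreated library, without LPS Fth1-high replicate 1 or 2, and by limma-voom. Serpina3h shares sequence with Serpina3g, as given above. Serpinb7 had 33 counts in untreated and 1 in LPS Fth1-high libraries, a ratio of 64.6 with an interval of 10.8 to 2626 (adjusted p = 0.0068). The collagen chaperone Serpinh1 was not called by edgeR without a replicate block, at 9.16 and 2.80 CPM in untreated, 60.3 and 6.27 CPM in LPS Fth1-low and 14.9, 4.10 and 3.82 CPM in LPS Fth1-high cells. It was highest within each LPS group in replicate 1, where fibroblast markers also had their highest sums within the group, 130.6 and 57.7 CPM, and their part was not tested. Serpinb6b ran from 0 to 4.50 CPM and was not called.

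**Figure D4:**
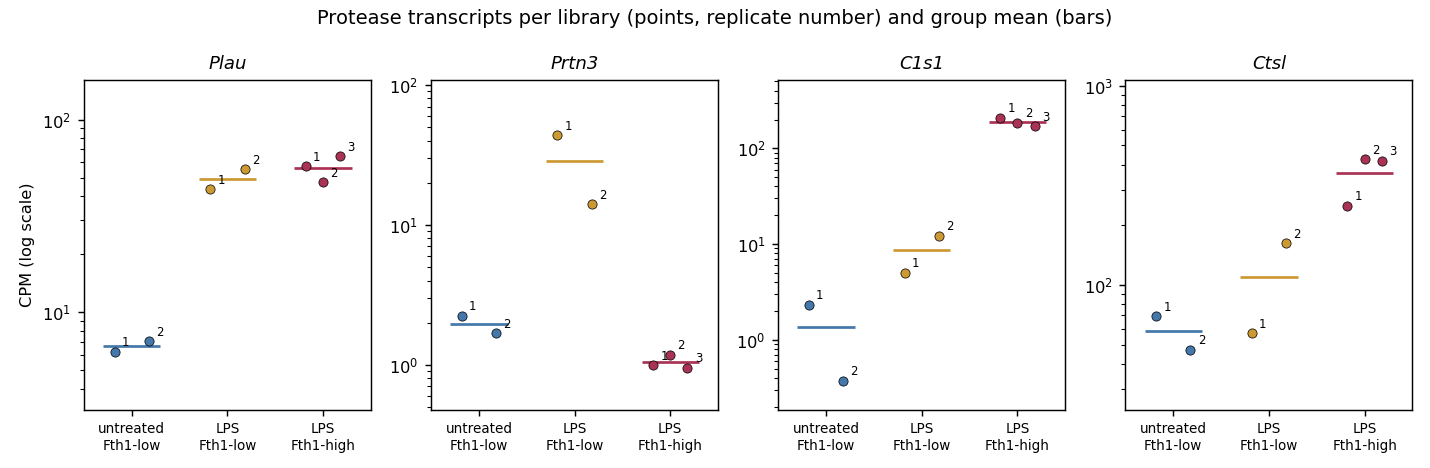
Level in CPM, on a log axis, of 4 proteases that serpins inhibit in each of the 7 libraries: Plau (target of Serpinb2), Prtn3 (Serpinb1a), C1s1 (Serping1) and Ctsl (Serpina3g). Prtn3 is high in LPS Fth1-low cells (43.5 and 14.1 CPM), whereas C1s1 is at 169 to 208 CPM in LPS Fth1-high cells and at most 12.2 CPM elsewhere.

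Of 36 proteases that these serpins or their relatives inhibit, 21 were tested, and their levels stand beside those of the inhibitors. Against LPS Fth1-low cells 7 were higher and 1 lower in LPS Fth1-high cells (median log2 difference 0.41), and against untreated cells 5 were higher and 0 lower in LPS Fth1-low cells (0.54) and 11 higher and 2 lower in LPS Fth1-high cells (0.82). In these comparisons 8.25%, 3.62% and 24.3% of all genes were called, with median log2 differences of 0.04, -0.05 and 0.03. The 7 proteases higher between the LPS groups included C1ra, C1rb, C1s1 and C1s2. The protease list was made with earlier results of these data known, and Prtn3, Ctsg and Elane stand in the neutrophil marker list too. Plau, the urokinase that Serpinb2 inhibits, stood at 6.25 and 7.08 CPM in untreated, 43.5 and 55.2 CPM in LPS Fth1-low and 57.1, 47.4 and 64.4 CPM in LPS Fth1-high cells. It rose by 2.94 ± 0.25 and 3.08 ± 0.23 (SE; adjusted p = 2.1e-04 and 2.2e-05) with a difference of 0.14 ± 0.21 between the LPS groups (adjusted p = 0.76). Serpinb2 was thus at 10.0 and 10.5 CPM beside Plau in LPS Fth1-low cells and at 0.796 to 1.70 CPM beside it in LPS Fth1-high cells. Plat, the tissue-type activator, went the other way, from 3.41 and 5.03 CPM in untreated to 1.67 and 2.83 CPM in LPS Fth1-low cells. LPS Fth1-high libraries held 0.730, 0.406 and 0.778 CPM of Plat. Their log2 difference from untreated cells was -2.71, a call lost without untreated replicate 2. Between the LPS groups it was -1.99, not called by edgeR but called by limma-voom. The urokinase receptor Plaur was lower in LPS Fth1-high than in LPS Fth1-low cells by a log2 difference of -0.85 ± 0.21 (adjusted p = 0.041), a call lost in each of the 7 fits without 1 library.

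Prtn3, proteinase 3 and a target of Serpinb1a, stood at 2.25 and 1.68 CPM in untreated, 43.5 and 14.1 CPM in LPS Fth1-low and 0.995, 1.18 and 0.954 CPM in LPS Fth1-high cells. Its log2 difference between the LPS groups was -4.66 ± 0.53 (SE; adjusted p = 9.1e-04). In LPS Fth1-low against untreated cells it was 3.74 ± 0.59 (adjusted p = 0.0079), which lost its call without either untreated library. Without LPS Fth1-low replicate 1 these values were -3.77 and 2.86, and without replicate 2 they were -5.36 and 4.44. Prtn3 was thus high where Serpinb2 was high, and both Prtn3 and Serpinb1a were low in LPS Fth1-high cells. In untreated cells Prtn3 was low too, but Serpinb1a stood at 12.4 and 7.92 CPM. Serpinb1a differed by -0.32 ± 0.81, not called, at the step where Prtn3 rose by 3.74. Ctsg, the target of Serpinb6a, had 26 counts in untreated and 1 in LPS Fth1-high libraries (ratio 50.9, interval 8.36 to 2086, adjusted p = 0.011, call lost without untreated replicate 2), and Elane, neutrophil elastase, had at most 7 counts per library and was not tested. Gzmb, the target of Serpinb9, had no difference called by edgeR without a replicate block. Its log2 difference between the LPS groups, -2.70 ± 1.15 (adjusted p = 0.22 by edgeR without the block), was called by DESeq2 and with the block. It stood at 36.8 CPM in LPS Fth1-low replicate 1 and 0.935 to 5.57 CPM in the other libraries. The proteoglycan Srgn, which stores granule proteases, had a log2 difference of -1.45 ± 0.22 in LPS Fth1-high against LPS Fth1-low cells (adjusted p = 0.0040).

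Ctss and Ctsb were the most abundant proteases of the list, and both are cysteine cathepsins, the class that Serpina3g inhibits. Ctsb stood at 2152 and 2042 CPM in untreated, 1140 and 2015 CPM in LPS Fth1-low and 2984, 3703 and 4454 CPM in LPS Fth1-high cells, higher between the LPS groups by 1.23 ± 0.31 (SE; adjusted p = 0.041). Ctsl was higher there by 1.65 ± 0.42 (adjusted p = 0.045) and against untreated cells by 2.65 ± 0.44 (adjusted p = 0.0022), and without LPS Fth1-low replicate 2 the first of these was 2.69. Both calls between the LPS groups were lost in 5 of the 7 fits without 1 library and in the fit of the LPS groups alone, that of Ctsl also with no filter and by limma-voom. Ctss, the most abundant, was called by edgeR in LPS Fth1-high against untreated cells (0.99 ± 0.31, adjusted p = 0.043), a call lost without either untreated library and without LPS Fth1-high replicate 2 or 3. Between the LPS groups it was not called by edgeR (0.96 ± 0.31, adjusted p = 0.099) but was by DESeq2, by limma-voom, with thinned libraries and without LPS Fth1-low replicate 2. Serpina3g differed by -0.28 ± 0.27 between the LPS groups, the step at which Ctsb and Ctsl were higher.

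C1r and C1s, the targets of Serping1, had large differences. C1ra, C1rb and C1s1 were higher in LPS Fth1-high than in LPS Fth1-low cells by 3.03 ± 0.38, 2.97 ± 0.33 and 4.12 ± 0.52 (SE) on the log2 scale (adjusted p = 0.0015, 7.8e-04 and 0.0019) and higher in LPS Fth1-low than in untreated cells by 2.34 ± 0.40, 2.71 ± 0.38 and 2.80 ± 0.56 (adjusted p = 0.011, 0.0037 and 0.025), calls that were lost without LPS Fth1-low replicate 2, and for C1ra also without either untreated library. The calls in LPS Fth1-low against untreated cells were also lost with thinned libraries for C1ra and C1rb. In the fit of those groups alone they were lost for C1rb and C1s1. Without LPS Fth1-low replicate 2 the differences between the LPS groups were 4.72, 4.13 and 5.23, and those of LPS Fth1-low from untreated cells 0.64, 1.54 and 1.67. These values rest on LPS Fth1-low replicate 1, where C1ra, C1rb and C1s1 held 4, 1 and 3 counts. Without untreated replicate 1 the last of these genes, C1s1, was 4.82 above untreated cells. Their sum with C1s2 was 7.62 and 4.57 CPM in untreated, 13.4 and 43.6 CPM in LPS Fth1-low and 444, 384 and 356 CPM in LPS Fth1-high cells. C1r and C1s counts per count of Serping1 were 1.79 and 9.80, then 8 (on 1 Serping1 count) and 13.5, then 101, 153 and 75.8. The LPS Fth1-high libraries lay above all others in this ratio, while Serping1 itself overlapped among the groups. C1s2 had 161 counts in LPS Fth1-high cells against 3 in LPS Fth1-low cells (ratio 15.8, interval 5.32 to 77.5), a call lost by DESeq2 and in 5 of the 7 fits without 1 library, and 0 in untreated cells, at least 27.4-fold higher against 3 counts over that group.

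Of the 9 cofactors, receptors and partners of these inhibitors, 0 were higher and 3 lower between the LPS groups (Plaur, Thbd and Srgn), and 1 was higher (F3) and 1 lower (Thbd) in LPS Fth1-low against untreated cells. In LPS Fth1-high against untreated cells 1 was higher (F3) and 4 lower (Thbd, Plaur, Srgn and Anxa2). The shares called over all genes were 8.25%, 3.62% and 24.3% in that order. Thbd lost its call between the LPS groups without LPS Fth1-low replicate 2. Its call in LPS Fth1-low against untreated cells was lost without either untreated library or LPS Fth1-low replicate 1. In LPS Fth1-high against untreated cells, Srgn lost its call without untreated replicate 1. Anxa2 lost its call there without either untreated library or LPS Fth1-high replicate 2. F3, tissue factor, stood at 0.833 and 0.186 CPM in untreated, 13.4 and 5.40 CPM in LPS Fth1-low and 2.79, 2.19 and 3.11 CPM in LPS Fth1-high cells, and lost both calls without untreated replicate 2. Leaving out replicate 1 of LPS Fth1-low, or replicate 3 of LPS Fth1-high, also ended the call in LPS Fth1-low cells. The call in LPS Fth1-high cells also ended when any one of its own 3 libraries was left out, and with upper quartile scaling. Lrp1, the receptor that clears serpin and protease complexes, was not called, at 1224 to 3248 CPM. Thrombomodulin, Thbd, stood at 293 and 314 CPM in untreated, 68.6 and 117 CPM in LPS Fth1-low and 32.1, 25.2 and 46.8 CPM in LPS Fth1-high cells, a log2 difference of -3.13 ± 0.30 (SE) between the last group and the first (adjusted p = 7.6e-05). Serpinb10 had the same order of groups, also with no overlap.

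Likeness of pattern was measured as the root mean square difference of centred log2 CPM over the 7 libraries, among the 8080 genes whose mean reached 10 CPM. Serpina3g was nearest to Serpina3f (0.27), the lectin-like receptor Tarm1 (0.35) and the interleukin-1 receptor antagonist Il1rn (0.38). Serpinb10 had distant neighbours, Ifitm6 (1.12), the angiotensin-converting enzyme Ace (1.33) and coagulation factor F5 (1.56), and Ifitm6 ran at 488 and 327, 295 and 189, and 2.59, 1.42 and 1.98 CPM. Serpinb2 was nearest to S100a9 (0.56), the decoy receptor Il1r2 (0.58) and Wfdc17 (0.67), and Il1r2 stood at 53.6 and 59.5 CPM in LPS Fth1-low cells against 8.38 to 16.2 CPM elsewhere. Serpinb1a was nearest to the immunoglobulin heavy chain gene Ighm (0.38), Kbtbd11 (0.45) and Bmx (0.52). Serpinb9 was nearest to the kinase Ikbke (0.39), Gpr171 (0.46) and C1rl (0.46). Serpinb6a and Serpinb8, which varied little, had the closest neighbours, Mmd (0.20) and Spag9 (0.16). Serping1 was nearest to Clic5 (0.55), which like it was high in untreated replicate 1 and low in replicate 2, at 34.9 and 2.33 CPM.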

How the data were processed

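Polyadenylated RNA (25 ng per library) was sequenced as 58 bp pairs from a stranded kit with 15 PCR cycles, per the labels' protocols. The authors deposited 1 table of whole-number read counts per gene, and the submitters' processing notes name DRAGEN, DESeq2 and mm10. Tool versions, the annotation and the counted strand were not given in the sources used here. Totals of the 7 libraries were 637787 to 27997007. The table had 26130 genes, 6880 without a count, and 0 unused sample columns.

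Counts were fitted in R 4.3.3 with edgeR 4.0.16 (filterByExpr, TMM scaling, robust quasi-likelihood fit of 3 groups, 4 residual degrees of freedom, 13665 genes, Benjamini-Hochberg adjustment). Alternatives were RLE and upper quartile scaling, no filter, at least 1 CPM in 3 libraries, DESeq2 1.42.0, limma-voom (limma 3.58.1), fits of 2 groups, a replicate block, thinning to the shallowest total and leaving out each library. RPKM used GENCODE vM21 exon lengths, which matched 64 of 65 serpins; RefSeq gave upstream windows for 6 of 8 members.

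The members, marker lists, protease lists and tests were chosen with earlier results of these data known. Named genes were all members, other serpins called in any comparison and the 3 most abundant uncalled ones (1 of them is not reported here), up to 6 called proteases or cofactors per comparison by smallest adjusted p, the 4 most abundant ones, and the 3 nearest genes per member. Plat, Plaur, Ctsl, Furin, Ctsg, Elane and Gzmb fall outside this rule and were named after their values were seen, as targets or partners of members. Replicates differed by more than counting noise. The labels do not say that replicates came from separate animals, and p-values reflect the spread among these libraries, which may be technical.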

Additional observations from a re-analysis of the deposited data

How the results depend on the processing

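Among the summaries and named genes, no called difference changed direction under the alternatives run. Genes called between LPS Fth1-low and untreated cells numbered 824 by DESeq2 against 495, and those between LPS Fth1-high and untreated cells 2027 with thinned libraries against 3315. Other serpins called in LPS Fth1-low against untreated cells were 2 with no filter and 3 by DESeq2 against 1, and in LPS Fth1-high against untreated cells 1 with thinned libraries against 4. Target proteases called in LPS Fth1-low against untreated cells were 3 with only those groups and 2 with thinned libraries, against 5. Leaving out each library gave 658 to 1061 genes between the LPS groups, 197 to 531 between LPS Fth1-low and untreated cells and 1918 to 4143 between LPS Fth1-high and untreated cells. In the same order it gave 0 to 0, 1 to 1 and 2 to 4 other serpins and 4 to 9, 2 to 5 and 8 to 15 proteases. The cause was not tested. Leaving out LPS Fth1-low replicate 2 moved the median log2 difference of all genes to 0.28 between the LPS groups and to -0.27 against untreated cells.

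With the replicate number as a block, 1328, 741 and 3119 genes were called in that order, and 4 other serpins instead of 1 between LPS Fth1-low and untreated cells. Of the genes reported, Serpinb1a and Gzmb then gained a call between the LPS groups and Serpina3i and Serpinh1 in LPS Fth1-low against untreated cells, while Furin and Ctss lost theirs in LPS Fth1-high against untreated cells. The labels name no shared animal or batch, and deviations of same-numbered libraries correlated between -0.04 and 0.29, so the numbers were not taken to pair samples. Over the alternatives, 16 of the members' log2 values moved beyond the spread between replicates and 356 did not. Depth limits Serpinb2, Serpinb1a and Serping1, with 6, 6 and 1 counts in the shallow library.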
